A study of Mus musculus with 267 samples.

Results

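Intronic regions are open chromatin regions (ATAC-seq peaks) of mouse bone marrow-derived macrophages whose centre the HOMER annotation places inside an intron. They were chosen from the annotation column of 5 tables, 1 for each mouse strain, in which the tags of chromatin immunoprecipitation libraries were counted over 1000 bp around each peak. Over the 5 strains 129533 of 305626 regions (42.4%) were intronic, with 28711 of 67742 in C57BL/6J (C57), 21857 of 54022 in BALB/cJ (BALB), 29302 of 68932 in NOD/ShiLtJ (NOD), 25775 of 60175 in PWK/PhJ (PWK) and 23888 of 54755 in SPRET/EiJ (SPRET). The macrophages were differentiated from marrow with M-CSF from female mice aged 8 to 12 weeks, and each strain had a basal group without interleukin-4 (IL-4) and a group kept with 20 ng/ml IL-4 for 24 h. No allele was deleted and no transgene was carried in these groups. Each group held 2 to 4 libraries for each of 4 marks: acetylated histone H3 lysine 27 (H3K27ac), RNA polymerase II (Pol II), and histone H3 lysine 4 with 2 methyl groups (H3K4me2) or 3 (H3K4me3). In all 88 libraries entered, 20 for each histone mark and 28 for Pol II. The protocol in the labels calls the replicates biological but does not say whether the libraries of a group came from separate mice or cultures, so the p-values measure the spread between these libraries, part of which may be technical. In bulk chromatin, fewer cells carrying a mark and less mark per cell cannot be told apart.

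Introns hold many of the enhancers of a mammalian genome, which are stretches of DNA bound by transcription factors that raise transcription from a promoter, either of the gene around them or of another gene. H3K27ac marks active enhancers and promoters, H3K4me2 marks both whether or not they are active, and H3K4me3 is strongest at promoters. Pol II tags inside an intron come from polymerase travelling through the host gene and from polymerase that starts at the enhancer itself, and these sources cannot be told apart in the counts. IL-4 signals through JAK kinases to the transcription factor STAT6 and turns macrophages towards a state known for tissue repair and lipid use, in which the factors EGR2 and PPARg take part. PU.1 is the factor that marks macrophage enhancers in general. The values are tags per region scaled to a library of 10000000 tags, called normalised tags here, and a fold change is the ratio of the 24 h to the basal group mean after adding 1 tag.

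The label was checked against the GENCODE gene annotation and against marker promoters. In the 5 strains 99.1% to 99.2% of the intronic regions lay inside an annotated gene, against 20.1% to 21.3% of the intergenic ones. Promoters of 6 to 8 of 8 macrophage marker genes had a region, with medians of 237 to 411 normalised H3K27ac tags over the basal and 24 h libraries together. No promoter region was found for the T cell, B cell, fibroblast, hepatocyte and epithelial markers, 1 of 4 neutrophil markers had one (38.8 to 185 tags), and so did 1 to 2 of 3 dendritic cell markers (1.75 to 29.5 tags). Single macrophage markers ranged from 13.7 to 626 tags. In BALB, NOD, PWK and SPRET the lowest of them (84.4, 159, 67.4 and 13.7 tags) lay below the neutrophil marker S100a8 (132, 185, 148 and 145 tags). In SPRET the lowest, Fcgr1, also lay below the dendritic cell marker Zbtb46.

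The sequences of the central 300 bp of 4 intronic regions are shown because these regions were among the largest H3K27ac folds in a strain or in all 5 strains. They are the mm10 reference on the + strand, which is the C57BL/6J genome, so the other strains may carry other letters there. Capitals mark the motif letters searched for: TTCNNNNGAA for STAT, CGTGGGNG for EGR, TTGCNNAA for C/EBP and TGANTCA for AP-1, on both strands. The first lies at chr9:72485483-72485782 in intron 4 of 11 of Tex9 and holds 1 STAT and 1 C/EBP match.
Tex9: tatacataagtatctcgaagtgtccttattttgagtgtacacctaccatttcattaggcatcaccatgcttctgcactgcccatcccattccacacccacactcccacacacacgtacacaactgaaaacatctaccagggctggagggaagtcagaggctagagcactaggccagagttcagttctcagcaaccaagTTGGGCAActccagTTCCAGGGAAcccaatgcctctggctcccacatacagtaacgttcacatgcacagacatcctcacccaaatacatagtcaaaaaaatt
The next lies at chr12:13410198-13410497 in intron 32 of 51 of Nbas, a gene of Golgi to endoplasmic reticulum transport, and also holds 1 STAT and 1 C/EBP match.
Nbas: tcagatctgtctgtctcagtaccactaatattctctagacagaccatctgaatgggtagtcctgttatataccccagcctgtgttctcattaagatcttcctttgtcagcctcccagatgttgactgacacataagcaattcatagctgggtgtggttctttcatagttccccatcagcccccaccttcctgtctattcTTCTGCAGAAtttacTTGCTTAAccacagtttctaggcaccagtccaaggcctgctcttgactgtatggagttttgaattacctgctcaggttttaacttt
The window at chr17:27968069-27968368 in intron 1 of 24 of Anks1 holds 2 STAT and 2 EGR matches.
Anks1: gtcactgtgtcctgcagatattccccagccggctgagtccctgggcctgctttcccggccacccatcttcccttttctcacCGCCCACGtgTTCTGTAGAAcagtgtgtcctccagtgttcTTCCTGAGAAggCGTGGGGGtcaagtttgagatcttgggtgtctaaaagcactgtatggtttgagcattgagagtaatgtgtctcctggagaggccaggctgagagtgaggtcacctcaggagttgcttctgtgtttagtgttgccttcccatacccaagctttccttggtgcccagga
The window at chr10:68725513-68725812 in intron 1 of 5 of Tmem26, a membrane protein gene, holds no STAT match and 2 AP-1 matches.
Tmem26: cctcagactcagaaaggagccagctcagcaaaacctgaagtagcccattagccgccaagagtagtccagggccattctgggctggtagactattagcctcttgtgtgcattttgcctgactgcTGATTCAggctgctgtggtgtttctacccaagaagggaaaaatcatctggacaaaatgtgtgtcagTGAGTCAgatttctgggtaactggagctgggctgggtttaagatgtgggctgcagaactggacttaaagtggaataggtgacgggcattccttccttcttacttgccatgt

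The intronic regions were spread over many genes. They fell in 8671 host genes in C57, 7517 in BALB, 8981 in NOD, 8236 in PWK and 7852 in SPRET, with a median of 2 regions per host in each strain. Zmiz1 held the most in C57 (59), PWK (65) and SPRET (99), and Sfi1 held the most in BALB and NOD (49 in each). First introns held 39.5% to 42.0% of the regions, and the median distance to the nearest start site was 21.2 to 24.4 kb. Neighbouring windows could share tags, since 13.7% to 19.2% of the intronic windows overlapped another one. A host gene was left unassigned for 260 to 332 regions per strain because the symbol of the annotated transcript lay over 10 kb away or had no match.

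The median intronic region carried H3K27ac at a level between those of the median promoter and, in 19 of 20 libraries, the median intergenic region. The median H3K27ac level of the intronic regions was lowest at 16.1, had a median of 23.1 and was highest at 35.8 normalised tags over the 20 libraries, against 14.4, 19.4 and 28.6 for intergenic regions and 53.8, 92.9 and 119 for promoters. The intronic median was above the intergenic one in 19 of 20 H3K27ac libraries, 28 of 28 Pol II libraries, 20 of 20 H3K4me2 libraries and 16 of 20 H3K4me3 libraries. By the mean over regions the order of H3K27ac was the other way in most libraries, with the intronic mean below the intergenic mean in 13 of 20, against 1 of 28 for Pol II, 3 of 20 for H3K4me2 and 0 of 20 for H3K4me3. By medians Pol II showed the clearest step between the distal classes, with intronic medians of 10.9 to 19.2 tags and intergenic medians of 4.55 to 10.7. By means H3K4me3 did, with intronic to intergenic ratios of 1.62 to 2.22 against 0.917 to 1.40 for Pol II. In the median intronic region H3K4me3, the promoter mark, was low, at 2.08 to 5.79 tags against 269 to 445 at promoters.

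Within introns the marks followed the position in the gene. First introns had higher medians than later introns in every library of each mark, with 23.8 to 51.2 against 12.7 to 27.2 tags for H3K27ac and 14.2 to 27.7 against 8.75 to 14.9 for Pol II. Regions within 5 kb of a start site had 30.6 to 70.6 H3K27ac tags, and those beyond 50 kb had 14.3 to 29.0. Regions whose ATAC-seq peak was called in both conditions had 25.5 to 56.6 H3K27ac tags, those called in the basal condition alone 9.01 to 28.6, and those called at 24 h alone 4.07 to 18.1.

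**Figure D1:**
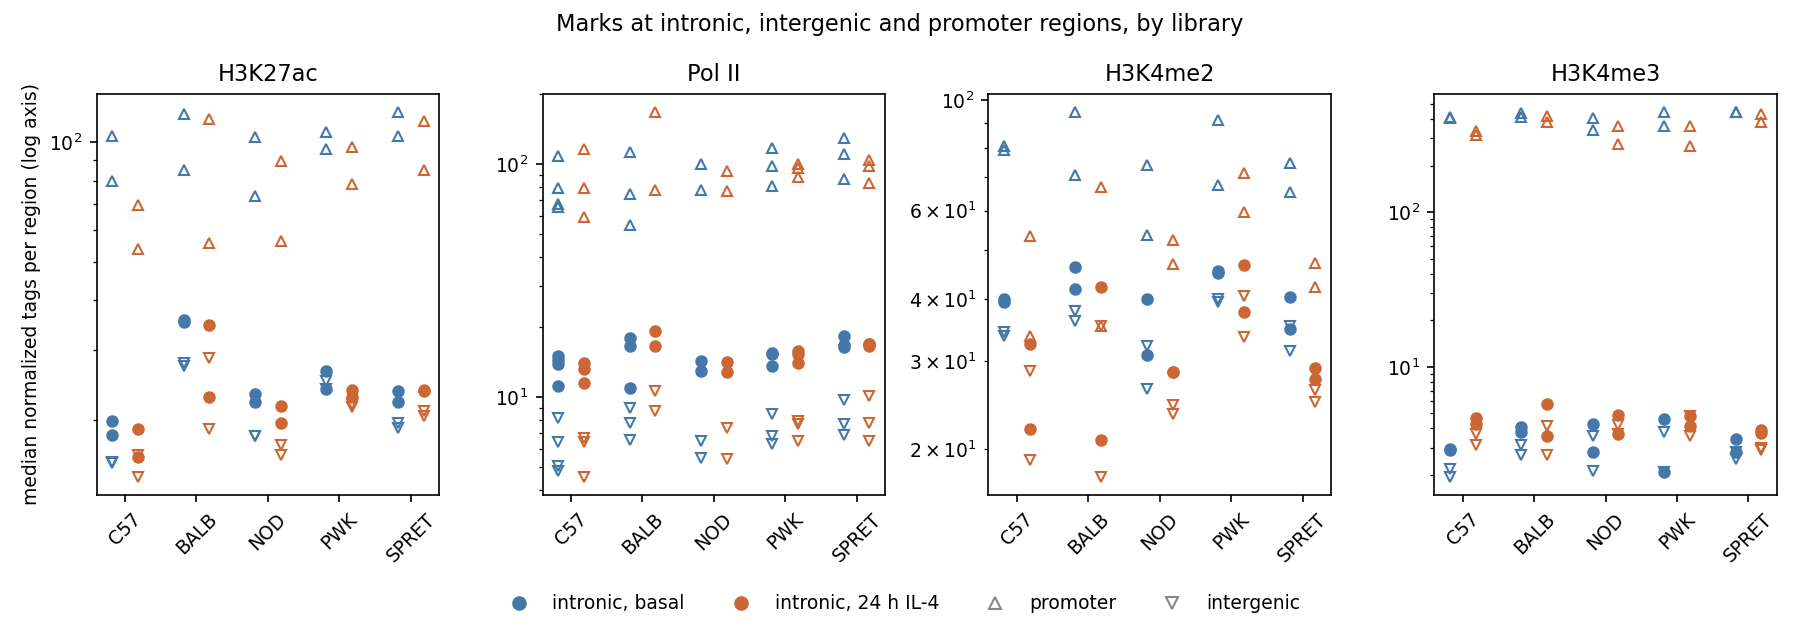
Each point is the median over the regions of 1 library, in normalised tags per region on a log axis, for the 4 marks and 5 strains in the basal (blue) and 24 h IL-4 (orange) groups. Filled circles are intronic regions, open triangles pointing up are promoters and those pointing down are intergenic regions. The intronic medians of Pol II sit between 10.9 and 19.2 and lie above the intergenic medians in all 28 libraries.

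Library composition moved with IL-4 and touches each fold change below. In C57 62.5% ± 4.10 of the H3K27ac tags (SD, n = 2) lay in the regions of the table in the basal group and 40.7% ± 3.51 at 24 h. The basal and 24 h means were 54.9% and 42.9% (BALB), 61.8% and 48.0% (NOD), 54.4% and 46.6% (PWK) and 49.7% and 45.7% (SPRET), and in BALB the 24 h libraries differed among themselves (SD 20.1). On the log2 scale the median intronic region differed at 24 h from basal by -0.59 in C57, -0.43 in BALB, -0.42 in NOD, -0.27 in PWK and -0.12 in SPRET for H3K27ac. The median over all regions was close to these, at -0.62, -0.37, -0.40, -0.26 and -0.14. With median-ratio scaling of the libraries, which sets the typical region equal between libraries, the intronic medians were -0.22, -0.14, -0.19, -0.06 and -0.03. For H3K4me2 the median intronic region differed by -0.71 in C57, -0.56 in BALB and -0.35 in NOD, so single losses of this mark lie on a general shift. With median-ratio scaling these H3K4me2 medians were -0.04, -0.01 and -0.03. The counts over all intronic regions, and those of the gene lists in C57, are therefore also given below with median-ratio scaling where it moved them. The groups without overlap, host genes and their promoters, ATAC-seq and position classes, matched regions, factor peaks and motifs are given with the deposited scaling only. The part of composition in the losses was not tested.

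The first question was whether IL-4 moved the marks of the intronic regions as a class against the other classes. The log2 ratio of mean H3K4me2 in intronic regions to that in intergenic regions differed by -0.10 at 24 h from basal (lower in 5 of 5 strains), and the ratio to promoters by 0.12 (higher in 5 of 5). A two-sided exact permutation test within strains gave p = 0.0144 and p = 0.0121, but over the 8 ratios tested the Benjamini-Hochberg adjusted p was 0.0576 for both. For H3K4me3 the differences were -0.10 and 0.06, each in 4 of 5 strains, with exact permutation p = 0.0463 and p = 0.0448 and an adjusted p of 0.0926. The H3K27ac ratios (-0.03 and 0.02, adjusted p 0.341 and 0.821) and the Pol II ratios (0.07 and 0.05, adjusted p 0.217 and 0.585) were within the spread between libraries in the same exact permutation test. No ratio of means passed the adjusted threshold. With medians of log2(tags + 1) in place of means, the ratios to promoters were 0.198 for H3K4me2 and 0.530 for H3K4me3, both with an exact permutation adjusted p of 0.0267, and the Pol II ratios turned to -0.0394 and -0.0378. With a replicate block both H3K4me2 ratios had an exact permutation adjusted p of 0.0469.

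Many single intronic regions differed in H3K27ac between the groups, with both gains and losses in each strain. A region was counted as higher or lower by the fold rule when its group means differed at least 2.5-fold and reached 16 normalised tags in either group, a rule that takes no account of the spread. Gains and losses mean regions higher or lower by this rule. In C57 1103 intronic regions were higher at 24 h (3.84%, against 3.46% of all regions) and 2329 were lower (8.11%, against 7.55%). BALB had 688 higher (3.15%, all regions 2.84%) and 1256 lower (5.75%, all regions 5.13%). NOD had 1019 higher (3.48%, all regions 3.24%) and 1551 lower (5.29%, all regions 5.14%). PWK had 932 higher (3.62%, all regions 3.1%) and 766 lower (2.97%, all regions 3.01%). SPRET had 693 higher (2.9%, all regions 2.64%) and 244 lower (1.02%, all regions 0.939%). The shares in introns were near those of all regions in each strain. Intergenic regions had 3.5% to 4.72% higher and 1.23% to 8.93% lower, and promoters 0.546% to 0.89% higher and 0.271% to 4.56% lower.

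The direction of the balance depended on the scaling and on single libraries. Lower regions made up 67.9% of the changed ones in C57, 64.6% in BALB, 60.4% in NOD, 45.1% in PWK and 26% in SPRET. Under median-ratio scaling they came to 36%, 30.2%, 39.3%, 23.7% and 17.7%, from higher and lower counts of 1711 and 964 (C57), 1097 and 475 (BALB), 1398 and 907 (NOD), 1293 and 401 (PWK) and 802 and 172 (SPRET). In C57 3512 regions were lower without 24 h replicate 2. In BALB 1112 were higher without 24 h replicate 2, and 1896 and 3939 were lower without basal replicate 1 and 24 h replicate 1. In NOD 1566 were higher and 2543 lower without basal replicate 1, and 2756 were lower without 24 h replicate 1. In PWK 1561 were higher without basal replicate 2, and 1513, 1732 and 1267 were lower without basal replicate 1, 24 h replicate 1 and 24 h replicate 2. In SPRET 1160 were higher and 467 lower without basal replicate 2, and 472 and 530 were lower without 24 h replicates 1 and 2.

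**Figure D2:**
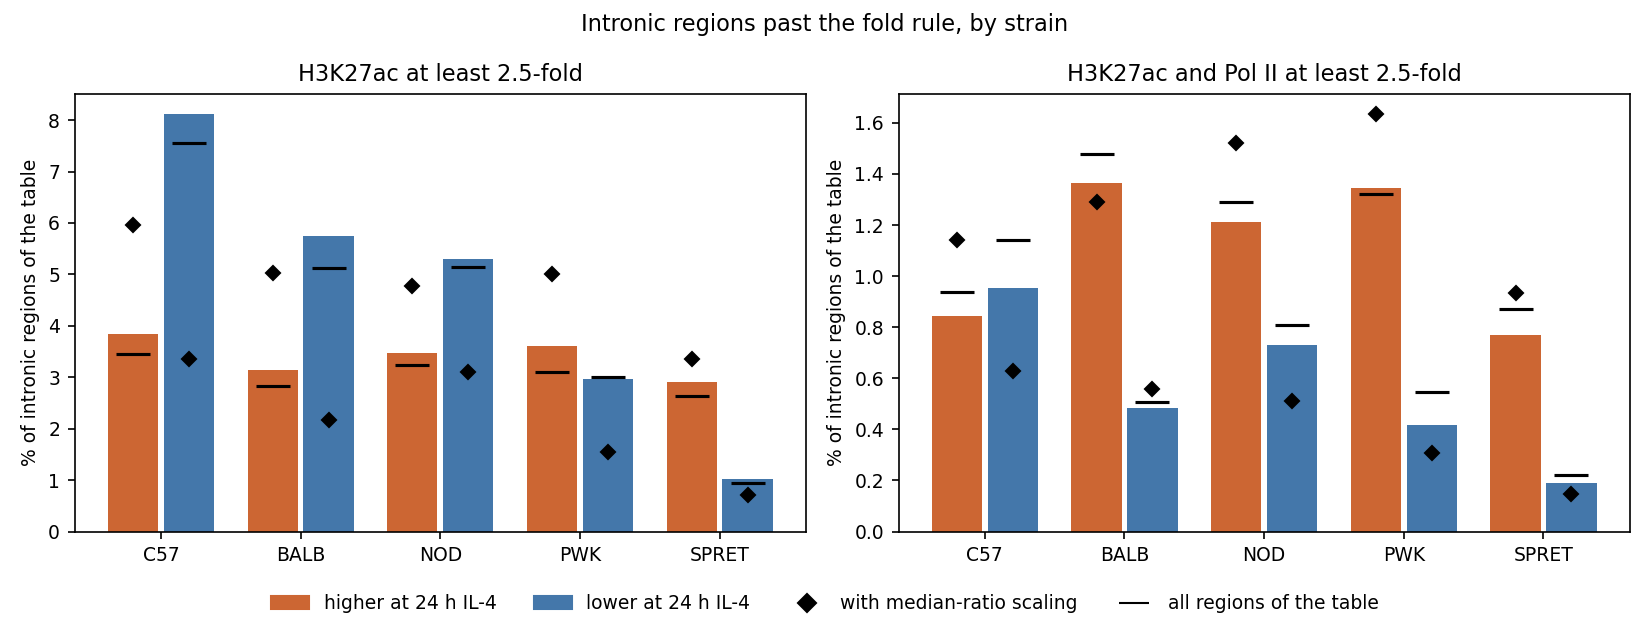
Bars give the percentage of the intronic regions of each strain that were higher (orange) or lower (blue) at 24 h IL-4 by the fold rule, for H3K27ac (left) and for H3K27ac and Pol II in the same direction (right). Diamonds give the same with median-ratio scaling and horizontal ticks the percentage over all regions of the table. Lower H3K27ac regions outnumber higher ones in C57, BALB and NOD with the deposited scaling and in no strain with median-ratio scaling.

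Requiring Pol II to differ the same way left more gains than losses in BALB, NOD, PWK and SPRET, and in C57 under median-ratio scaling only. Pol II had to pass the same fold with 8 tags. In C57 242 intronic regions were higher in both marks (all regions 0.936%) and 274 lower (all regions 1.14%). The higher and lower counts were 298 and 106 for BALB (all regions 1.48% and 0.507%), 355 and 214 for NOD (1.29% and 0.807%), 347 and 108 for PWK (1.32% and 0.548%) and 184 and 45 for SPRET (0.873% and 0.221%). With median-ratio scaling the counts, in the same order from C57 to SPRET, were 328 and 181, 282 and 122, 446 and 150, 421 and 79, and 223 and 35, so that the share of lower regions went from 53.1% to 35.6% in C57, from 26.2% to 30.2% in BALB, from 37.6% to 25.2% in NOD, from 23.7% to 15.8% in PWK and from 19.7% to 13.6% in SPRET. In BALB 194 were higher without H3K27ac 24 h replicate 1 and 201 lower without Pol II 24 h replicate 1. In NOD 403 were lower without Pol II 24 h replicate 1, and in SPRET 25 were lower without Pol II basal replicate 1. Regions of this kind whose basal and 24 h libraries did not overlap for H3K27ac nor for Pol II numbered 162 higher and 183 lower for C57 (all regions 0.626% and 0.8%), 271 and 83 for BALB (1.36% and 0.424%), 339 and 182 for NOD (1.22% and 0.708%), 302 and 85 for PWK (1.15% and 0.435%) and 165 and 40 for SPRET (0.794% and 0.203%).

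A test that does use the spread, limma on log2 of the normalised tags plus 1 over all regions of a table with Benjamini-Hochberg adjustment, called far fewer regions without a replicate block. For H3K27ac it called 521 intronic regions in BALB (2.38% against 2.26% of all regions), of which 374 rose and 147 fell. In SPRET 241 rose and 48 fell (1.21% against 1.19% of all regions), in PWK 132 rose and 10 fell (0.551% against 0.535%) and in NOD 15 rose and none fell (0.0512% against 0.0566%). Median-ratio scaling gave 175 that rose and 11 that fell in SPRET, 42 and 0 in PWK, and no call in NOD. In C57 no intronic region was called without the block (0% of all regions), although 2098 higher and 4222 lower ones, 6320 together, had p below 0.05 before adjustment, and the count tests on recovered reads called 53 (edgeR) and 901 (DESeq2). With a block on the replicate number limma called 10343 in C57 (2668 rose and 7675 fell) and 6238 in NOD (2054 and 4184). It called 2619 in PWK (1370 and 1249), 1861 in BALB (873 and 988) and 1851 in SPRET (1170 and 681). The labels do not say what a number marks, but same-numbered H3K27ac libraries deviated together in each strain (correlations of 0.51 to 0.73). The unblocked test takes no account of this. Leaving out 1 library moved most of the unblocked counts by over 1.5 times. In C57 76 and 36 were called without basal replicates 1 and 2, and in BALB 207, 297 and 1508 without basal replicate 1, basal replicate 2 and 24 h replicate 1. Without basal replicates 1 and 2 the counts were 774 and 604 (NOD), 317 and 805 (PWK) and 35 and 94 (SPRET), and without either 24 h library they were 0 in each of these 3 strains.

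For Pol II, limma without a replicate block called more intronic regions that rose than that fell in the 4 strains with calls. The test called 439 in PWK (387 rose and 52 fell, 1.7% against 1.72% of all regions), 256 in SPRET (199 and 57, 1.07% against 1.05%), 125 in BALB (115 and 10, 0.572% against 0.707%) and 83 in C57 (59 and 24, 0.289% against 0.319%). In NOD it called 0 (0% of all regions), while 2316 had p below 0.05 before adjustment and the count tests called 19 (edgeR) and 180 (DESeq2). Same-numbered Pol II libraries deviated together in C57, PWK and SPRET, and blocking on that number gave 239 in C57 (146 rose and 93 fell), 2677 in PWK (1673 and 1004) and 2006 in SPRET (971 and 1035). After median-ratio scaling the unblocked test called 14 (BALB), 179 (C57) and 4 (NOD). Leaving out single libraries gave 276, 19, 12 and 10 in C57 without basal replicates 1 to 4 and 0 without 24 h replicate 1 or 2. In BALB it gave 67, 59 and 0 without basal replicates 1 to 3 and 43 without 24 h replicate 1. In PWK it gave 130, 54, 38 and 91 without basal replicates 2 and 3 and 24 h replicates 2 and 3, and in SPRET 65, 165 and 61 without basal replicates 1 to 3 and 16, 41 and 109 without 24 h replicates 1 to 3.

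With a replicate block limma called up to 6038 intronic regions for H3K4me2 (SPRET, 257 rose and 5781 fell) and up to 3418 for H3K4me3 (C57). Without the block, H3K4me2 regions with p below 0.05 before adjustment were mostly lower, at 7844 against 739 higher in C57 and 6177 against 292 in SPRET. Without the block the methylation marks changed at few intronic regions by the same limma test. For H3K4me2 it called 103 in PWK (all rose, 0.314% of all regions), 72 in C57 (50 rose and 22 fell, 0.236%), 60 in NOD (52 and 8, 0.189%), 2 in BALB (both rose, 0.0111%) and 0 in SPRET (0%), where 6469 had p below 0.05 before adjustment and the count tests called 7 (edgeR) and 1 (DESeq2). After median-ratio scaling 129 rose and 4 fell (C57), 90 and 2 (BALB), 12 and 0 (NOD) and 9 and 0 (PWK). For H3K4me3 it called 11 in PWK (all rose, 0.0349%) and 8 in NOD (5 rose and 3 fell, 0.0203%), and with median-ratio scaling 0 in PWK and 53 in NOD (34 rose and 19 fell). It called 0 for H3K4me3 in C57 (0% of all regions, 4295 before adjustment, and 66 and 149 in edgeR and DESeq2), 0 in BALB (0%, 1460 before adjustment, 21 and 59) and 0 in SPRET (0%, 1675 before adjustment, 120 and 33). Each H3K4me2 count moved by over 1.5 times when 1 library was left out. Without basal replicates 1 and 2 and 24 h replicates 1 and 2, in that order, the H3K4me2 counts were 17, 46, 13094 and 0 (C57), 1, 12, 11039 and 17 (BALB), 6674, 208, 3 and 0 (NOD), 59, 161, 0 and 0 (PWK), and 2165, 34, 116 and 370 (SPRET). For H3K4me3 they were 86, 23, 0 and 0 in PWK and 0 for each library of NOD.

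The intronic regions with the largest gains in both marks recurred between strains, and Nbas, Tmem26, Tex9 and Il31ra each led in more than 1 strain. In the Tex9 region of C57, chr9:72485132-72486132, H3K27ac was 1.36 and 0 normalised tags in the basal libraries and 53.48 and 103.04 at 24 h. Pol II there was 3.74, 1.6, 0.54 and 2.03 against 9.34, 9.56 and 11.54, and H3K4me2 was 0.82 and 0.7 against 27.87 and 13.18. The groups did not overlap in any of the 3 marks, and H3K4me2 rose by 3.52 (limma, log2) with an adjusted p of 2.13e-05, while for H3K27ac the difference of 5.61 ± 0.66 (SE) had an adjusted p of 0.106. The same intron rose in BALB, where H3K27ac went from 0 and 1.19 to 67.02 and 38.59 tags (5.13 ± 0.59, adjusted p 1.18e-14) and H3K4me2 rose by 3.41 (adjusted p 0.00504).

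Tmem26 showed the largest fold in NOD, and its Pol II gain was the largest of the leading regions of NOD and PWK. At chr10:68725162-68726162 in NOD, H3K27ac was 0.83 and 0 in basal and 88.96 and 63.04 at 24 h, and it rose by 5.81 (limma adjusted p 0.0454). Pol II was 1.3 and 2.74 against 174.69 and 136.3, which did not overlap but missed the threshold (adjusted p 0.0620), and H3K4me3 rose from 4.99 and 2.81 to 38.88 and 46.79 (adjusted p 0.0191). In PWK all 4 marks rose at Tmem26: H3K27ac from 1.72 and 0.78 to 162.3 and 83.99 tags (adjusted p 0.00147) and Pol II from 2.82, 4.9 and 3.79 to 302.71, 217.65 and 251.43 (adjusted p 1.20e-06), with adjusted p 0.000105 for H3K4me2 and 0.0132 for H3K4me3. In C57 H3K27ac was 0.68 and 3.57 against 103.56 and 47.25, a 24.4-fold difference with an adjusted p of 0.108. Pol II there rose from 13.73, 0.8, 0 and 1.01 to 244.77, 175.21 and 43.61 (adjusted p 0.00791).

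Il31ra, which encodes a subunit of the IL-31 receptor, held a region in intron 5 of 16 at chr13:112551333-112552333 in BALB. H3K27ac rose there from 2.94 and 1.79 to 110.69 and 76.7 (limma adjusted p 2.06e-14) and Pol II from 0, 0.59 and 3.28 to 23.45 and 60.3 (adjusted p 3.10e-06). In NOD H3K27ac rose at the same intron from 3.32 and 0.79 to 113.56 and 171.67 (adjusted p 0.0454). Ddhd1, a phospholipase gene, had a region at chr14:45633720-45634720 where H3K27ac rose in BALB from 4.41 and 1.19 to 172.44 and 68.6 (adjusted p 2.30e-15), and Pol II did not pass (adjusted p 0.123). The Kcnn3 region of PWK (chr3:89526279-89527279), in the gene of a calcium-activated potassium channel, had 1.72 and 0 tags in basal and 211.46 and 25.77 at 24 h with a wide gap between the 24 h libraries, and both H3K27ac (adjusted p 0.00741) and Pol II (adjusted p 0.00126) rose.

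In SPRET 2 neighbouring windows of Usp20, which encodes a deubiquitinase, were among the 3 largest gains. At chr2:31008164-31009164 H3K27ac rose from 0.85 and 1.98 to 91.69 and 66.77 (limma adjusted p 0.000185), and at chr2:31009188-31010188 from 0 and 3.95 to 78.46 and 64.62 (adjusted p 0.000866). Pol II at the first window had an adjusted p of 0.0537, and 0.00314 with the replicate block. In C57 the other leading gains were Ttc27 (chr17:74722823-74723823) and Slc7a14 (chr3:31265745-31266745), a member of the amino acid transporter family. H3K27ac was 3.39 and 0 against 85.73 and 99.76 at Ttc27 and 1.36 and 0.71 against 86.58 and 51.19 at Slc7a14, both with an adjusted p of 0.106, and Pol II rose at both (adjusted p 0.0308 and 0.0471).

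Several of these folds rest on very few basal reads. For Tex9 the counting ratio of 24 h to basal H3K27ac was 117 in C57 (95% interval 32 to 973) and 75.4 in BALB (20.5 to 627). It was 63.9 for Slc7a14 in C57 (21.5 to 313), 183 for Tmem26 in NOD (32.6 to 7266), 121 for Tmem26 in PWK (33.2 to 1002) and 250 for Kcnn3 in PWK (44.6 to 9918). At Nbas in PWK both basal libraries were at 0, and the 24 h group was at least 59.96-fold higher than the floor of 3 reads over the group. These intervals and the floor cover counting error only.

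Losses were led by an unassigned region on chromosome 2 and by Sh3pxd2a, each among the largest in more than 1 strain. A region can pass the rule downwards only from a basal level above the minimum, so their high basal levels are set by the rule. An unassigned intronic region at chr2:71661673-71662673 in C57 had 282.91 and 540.49 H3K27ac tags in basal and 16.13 and 44.63 at 24 h, 13.2-fold lower (limma adjusted p 0.108). Pol II there fell from 13.1, 31.3, 95.93 and 72.91 to 4, 2.28 and 7.7 (adjusted p 0.0437). In BALB H3K27ac fell at this place in both of its windows, from 200.61 and 222.22 to 45.18 and 18.58 (adjusted p 0.00475) and from 114.64 and 145.36 to 24.1 and 13.82 (adjusted p 0.00181). In NOD it was 142.13 and 445.31 against 31.1 and 41.65 (adjusted p 0.147).

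Sh3pxd2a, which encodes a scaffold of podosomes, led the losses in C57 and SPRET. In intron 1 of 13 at chr19:47446467-47447467 H3K27ac was 269.34 and 367.93 in C57 and 26.31 and 24.94 at 24 h, 12-fold lower (limma adjusted p 0.106), and Pol II had an adjusted p of 0.0503, or 0.0329 with the replicate block. In SPRET H3K27ac fell at Sh3pxd2a from 160.72 and 143.55 to 22.04 and 23.69 (adjusted p 0.00128), and Pol II fell too (adjusted p 0.0427). Pou2f2, the gene of the transcription factor Oct2, had a region in intron 1 of 14 (chr7:25130245-25131245) with 155.36 and 98.4 tags against 14.43 and 9.19 in C57. Pol II fell by 2.64 there (limma, log2, adjusted p 0.0233) and H3K4me2 fell by 2.11 (adjusted p 0.00107), and H3K4me3 was 180.52 and 139.94 against 26.28 and 14.83. The median C57 intronic region differed by -0.71 in H3K4me2 (log2).

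Map3k5, a stress kinase gene, had the largest loss in BALB, where H3K27ac at chr10:20057778-20058778 fell from 67.61 and 131.66 to 13.55 and 8.1 (limma adjusted p 6.26e-05) and Pol II fell as well (adjusted p 0.0117). In NOD the regions of Cmah, a hydroxylase of sialic acid (54.86 and 317.51 against 13.74 and 27.58, adjusted p 0.243), and Fpr2, a receptor for formyl peptides (141.3 and 83.35 against 12.3 and 12.38, adjusted p 0.0908), did not pass for H3K27ac. H3K4me2 and H3K4me3 both fell at Fpr2 (adjusted p 0.00403 and 0.0191), where the median NOD intronic region differed by -0.35 in H3K4me2 (log2). In PWK H3K27ac fell at Lincred1 (chr2:103901222-103902222) from 99.57 and 118.23 to 10.77 and 10.5 (adjusted p 0.00720) and at D5Ertd615e from 116.74 and 85.35 to 21.55 and 14.32 (adjusted p 0.0389). At Gm13986 it was 90.99 and 216.89 against 28.96 and 25.77 (adjusted p 0.0558), and Pol II there had an adjusted p of 0.0715, or 8.27e-09 with the replicate block. In SPRET it fell at Gm4832 from 135.07 and 72.43 to 22.04 and 18.31 (adjusted p 0.0112; Pol II 0.0773, or 0.0174 with the replicate block) and at Ppcdc, a gene of coenzyme A synthesis, from 88.91 and 78.36 to 10.58 and 23.69 (adjusted p 0.0132).

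With a replicate block 56 of the 57 named regions passed for H3K27ac in limma. Without the block 20 of the 57 passed in limma, 24 in edgeR and 46 in DESeq2. Of the 20, 4 passed without any 1 library (Tex9, Ddhd1, Il31ra and Map3k5 in BALB), and 16 lost the call without at least 1. Without either of the 24 h libraries, no named region of NOD, PWK or SPRET passed. Of the regions that did not pass, 14 did so without at least 1 library, among them Tex9 and Nbas in C57.

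The IL-4 programme, a list of 51 genes known for their response to IL-4 in macrophages, held a small part of all gains, but many of its own regions were among them. In C57 31 of these genes held 109 intronic regions, of which 26 (23.9%, beside 3.46% of all regions) were higher in H3K27ac and 6 (5.5%, beside 7.55%) lower by the fold rule, with a median log2 fold of 0.55 against -0.62 over all regions. With median-ratio scaling 33 were higher and 5 lower. The share higher was 21.5% in BALB (all regions 2.84%), 26.4% in NOD (3.24%), 27.4% in PWK (3.1%) and 15.7% in SPRET (2.64%). The median log2 folds of the list in these strains were 0.40, 0.58, 0.65 and 0.68, against -0.37, -0.40, -0.26 and -0.14 over all regions. By their strongest region, the members that were higher in C57 included Olfm1 (5.43 and 4.99 against 53.48 and 61.69 tags, 9.43-fold), the transcription factor gene Egr2 (29.17 and 22.82 against 241.07 and 145.04, 7.19-fold), and Cdh1, which encodes E-cadherin (21.03 and 44.21 against 101.86 and 208.05, 4.64-fold). None of these passed limma without a block for H3K27ac in C57 (adjusted p 0.108 to 0.311 over the list genes named). At Egr2 (chr10:67538274-67539274) Pol II rose by 2.08 (adjusted p 0.0312) while H3K4me2 fell by 1.87 (adjusted p 0.00793), beside a median of -0.71 over C57 intronic regions. Matk, a kinase gene, was 34.6 and 73.44 against 125.63 and 282.87 (3.73-fold), Flt1, a receptor for VEGF, was 5.43 and 3.57 against 5.94 and 36.1 (4.00-fold), and Hbegf, a ligand of the EGF receptor, was 14.25 and 22.82 against 56.02 and 47.91 (2.71-fold). Itgax, the gene of CD11c, was 31.21 and 56.33 against 101.01 and 129.29 (2.59-fold), with a Pol II adjusted p of 0.135, or 0.0129 with the replicate block. The strongest regions of 2 list genes were lower: Jag2, a Notch ligand (11.53 and 96.26 against 10.19 and 6.56, groups 5.86-fold apart in the mean), and Atp6v0d2, a subunit of the vacuolar proton pump (1008.15 and 729.45 against 288.6 and 269.74, 3.10-fold).

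Regions in inflammatory response genes had more losses than gains in each strain, except under median-ratio scaling in BALB, where both numbered 4. Of 79 intronic regions in 27 of 42 such genes 17 (21.5%, beside 7.55% of all regions) were lower and 2 (2.53%, beside 3.46%) higher in C57, or 10 and 4 with median-ratio scaling, and the median log2 fold was -0.90 against -0.62 over all regions. The share lower was 10.4% in BALB (all regions 5.13%), 14.1% in NOD (5.14%), 6.15% in PWK (3.01%) and 4.92% in SPRET (0.939%). The share higher was also above that of all regions there, at 5.19% (2.84%), 3.85% (3.24%), 4.62% (3.1%) and 3.28% (2.64%). The counts were small, with 4 lower and 3 higher in PWK and 3 and 2 in SPRET. The median log2 folds were -0.71, -0.58, -0.42 and -0.13, against -0.37, -0.40, -0.26 and -0.14 over all regions. Lower regions of the list under median-ratio scaling went from 8 to 4 in BALB and from 11 to 7 in NOD, and stayed at 4 in PWK and 3 in SPRET. In C57 the region of Cx3cr1, the fractalkine receptor, had 103.12 and 188.96 H3K27ac tags in basal and 18.67 and 19.03 at 24 h (7.41-fold lower), and Pol II fell there by 3.0 (limma, log2, adjusted p 0.0107). At Nlrp3, the inflammasome sensor, H3K27ac was 837.18 and 673.83 against 222.39 and 199.52 (3.57-fold lower), and Pol II fell by 2.66 (adjusted p 0.00658). The Toll-like receptor genes Tlr2 (103.8 and 98.4 against 29.71 and 9.84, 4.91-fold) and Tlr7 (308.01 and 252.42 against 86.58 and 118.14, 2.72-fold) were lower by the fold rule, and Pol II at Tlr2 had an adjusted p of 0.0654, or 0.00379 with the replicate block. Il10ra (523.07 and 348.68 against 169.77 and 150.29, 2.71-fold) was also lower, and at Nfkb1 the groups overlapped (35.96 and 221.05 against 9.34 and 44.63).

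In the other lists the balance of gains and losses in C57 depended on the scaling. Of 71 regions in genes of the IL-4 receptor and JAK-STAT pathway 2 were higher (2.82%, beside 3.46% of all regions) and 4 lower (5.63%, beside 7.55%), or 5 and 2 with median-ratio scaling (median log2 fold -0.44). The phosphatase genes Ptpn6 (508.82 and 619.64 against 162.13 and 168.01, 3.40-fold lower) and Ptpn2 (48.17 and 77.01 against 162.98 and 201.49, 2.88-fold higher) moved in opposite directions by the fold rule. Of 211 regions in macrophage identity genes 2 were higher (0.948%) and 14 lower (6.64%) in C57, below the shares of all regions in both directions, or 4 and 4 with median-ratio scaling (median -0.66). In SPRET 8 of 230 were higher (3.48%, beside 2.64% of all regions) and 0 lower. Of 133 regions in genes of lipid handling and the lysosome 1 was higher (0.752%) and 5 were lower (3.76%) in C57, or 3 and 2 with median-ratio scaling (median -0.53), among them one of Scarb1, the receptor for high-density lipoprotein (194.03 and 193.95 against 62.81 and 76.79, 2.75-fold lower).

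Some host genes held many changed regions. In C57 the hosts with the most higher regions were Sfi1 (20 of 58), Itpr1, an IP3 receptor gene (12 of 25), the transcription factor gene Creb5 (11 of 26), Mad1l1 of the spindle checkpoint (9 of 27) and Clec16a, a gene of autophagy (8 of 17). Those with the most lower regions were Zdhhc14, a palmitoyltransferase gene (13 of 16), Lpp of focal adhesions (11 of 35), Ptk2b, the gene of the kinase Pyk2 (11 of 19), Myh9, a non-muscle myosin gene (10 of 19), and Adap1, an Arf GTPase-activating protein gene (9 of 11). In BALB, NOD, PWK and SPRET Clec16a had 4, 7, 3 and 6 higher regions, Mad1l1 7, 8, 8 and 2, Creb5 6, 4, 3 and 5 and Itpr1 2, 5, 3 and 4, with none lower. Adap1 had 6, 8, 4 and 3 lower regions and Ptk2b 7, 3, 2 and 2, with none higher. Zdhhc14 had 2, 2, 4 and 0 lower and Myh9 2, 4, 2 and 0, also with none higher, and Lpp had 2, 2, 0 and 0 lower and 1, 1, 3 and 1 higher. Sfi1 had 0, 3, 1 and 0 higher of 49, 49, 58 and 5 regions. Its C57 regions lie at chr11:3133196-3193666, where 5.14% of the 36-base stretches occur again on the chromosome, so the placement of its tags is uncertain.

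Promoters were compared with the introns of the same gene. For hosts with only higher intronic regions the median log2 H3K27ac fold at the promoter was -0.32 in C57, 0.01 in BALB, 0.04 in NOD, 0.03 in PWK and 0.05 in SPRET. For hosts with only lower ones it was -0.99, -0.55, -0.58, -0.47 and -0.42, and for hosts with neither -0.65, -0.26, -0.32, -0.22 and -0.19. The order of the 3 medians was the same in each strain, and the hosts were grouped by H3K27ac of the same libraries, so it was not tested. Few of these promoters passed the fold rule themselves: 28 of 379 were higher among hosts with only higher regions in C57, 14 of 272 in BALB, 31 of 386 in NOD, 16 of 370 in PWK and 22 of 282 in SPRET. Among C57 hosts with only lower regions 180 of 771 promoters (23.3%) were lower.

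Gains were commonest where the ATAC-seq peak itself was called only after IL-4. Of intronic regions with a peak at 24 h alone 5.39% were higher in C57, 8.31% in BALB, 12.4% in NOD, 9.04% in PWK and 6.02% in SPRET. Of those with a basal peak alone 2.38%, 0.542%, 1.02%, 0.946% and 0.842% were higher. Losses had the opposite pattern, with 3.13%, 1.56%, 1.55%, 0.734% and 0.295% lower among peaks at 24 h alone against 9.30%, 8.21%, 5.96%, 4.54% and 1.44% among basal peaks alone. In C57 the exact 95% binomial intervals of the higher shares were 4.77% to 6.06% and 2.09% to 2.69%, which take each region as independent.

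Gains were also more frequent away from the start of the gene. Later introns had more higher regions than first introns in each strain, with 4.43% against 3.02% in C57, 3.82% against 2.22% in BALB, 3.79% against 3.0% in NOD, 4.21% against 2.72% in PWK and 3.23% against 2.43% in SPRET. Beyond 50 kb from a start site 3.74% to 5.08% were higher, and within 5 kb 1.62% to 2.29%. Since first introns have higher H3K27ac levels, the part of the basal level in this order was not tested.

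Regions of the 5 tables were matched to each other when their centres lay within 500 bp of a C57 intronic region, which gave 11286 regions found in all 5 strains (39.3% of the C57 intronic regions). The annotation was intronic in all 5 strains for 10949 of them. Neighbouring C57 windows could be matched to the same region of another strain, so some places are counted more than once. Of the 11286 matched regions 745 were higher in H3K27ac by the fold rule in at least 1 strain, 1775 were lower in at least 1 and 8769 were neither in any. With the deposited scaling higher regions were shared more widely than lower ones: 322, 128, 125, 78 and 92 were higher in exactly 1, 2, 3, 4 and 5 strains, and 948, 387, 263, 146 and 31 were lower. The sharing under median-ratio scaling, which lowers the number of losses, was not tested. In C57 430 were higher, 77 of them in no other strain, and 1339 were lower, 595 of them in no other strain. SPRET had 283 higher, 101 of them alone, and 137 lower, 32 of them alone.

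**Figure D3:**
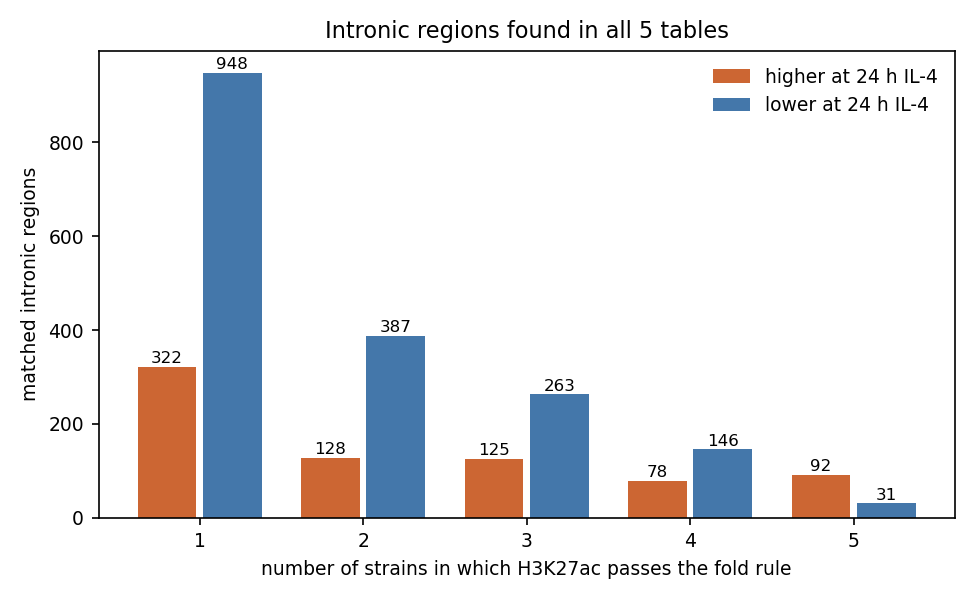
The bars give the number of C57 intronic regions with a match in all 5 tables that were higher (orange) or lower (blue) in H3K27ac at 24 h IL-4 by the fold rule, against the number of strains in which they were so. The higher bars go from 322 in 1 strain to 92 in 5, and the lower bars from 948 to 31.

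The overlap of the higher regions was largest between C57, BALB and NOD. Of those higher in BALB 84.0% were higher in C57 and 77.9% in NOD, and of those higher in C57 60.9% were higher in BALB and 65.6% in NOD. Of those higher in PWK 59.4% were higher in C57, 52.1% in BALB, 58.2% in NOD and 41.2% in SPRET. Of those higher in SPRET 50.2%, 46.3%, 47.7% and 48.1% were higher in C57, BALB, NOD and PWK. The lists differ in length, from 283 in SPRET to 430 in C57, so each overlap is given as a share of the list named first.

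Of the 92 regions higher in all 5 strains the 5 with the largest median fold lay in Nbas (42.6-fold), Anks1 (25.6), Slc7a14 (16.7), the zinc finger gene Zfp385a (16.1) and Nav2 (16.1). At Nbas H3K27ac was 2.04 and 0.71 in basal C57 and 76.39 and 124.04 at 24 h, 8.08 and 1.19 against 134.79 and 71.93 in BALB and 2.49 and 0.79 against 123.68 and 107.5 in NOD. In PWK it was 0 in both basal libraries and 86.87 and 110.71 at 24 h, and in SPRET 4.27 and 19.1 against 479.59 and 200.31. SPRET had the highest level in both conditions at Nbas. By limma it rose in NOD, PWK and SPRET (adjusted p 0.0454, 0.00103 and 0.000319), and in SPRET Pol II rose with it, from 3.87, 2.28 and 4.11 to 76.06, 50.19 and 39.71 (adjusted p 0.00223). At Anks1 the C57 values were 4.07 and 0.71 against 66.21 and 105.67, and H3K4me2 rose by 2.93 there (adjusted p 1.87e-05). Slc7a14 had a raised basal level in PWK, at 61.8 and 64.21 tags against 438.4 and 150.79 at 24 h, a 4.62-fold difference, where the other 4 strains had 0.71 to 8.34 in basal.

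**Figure D4:**
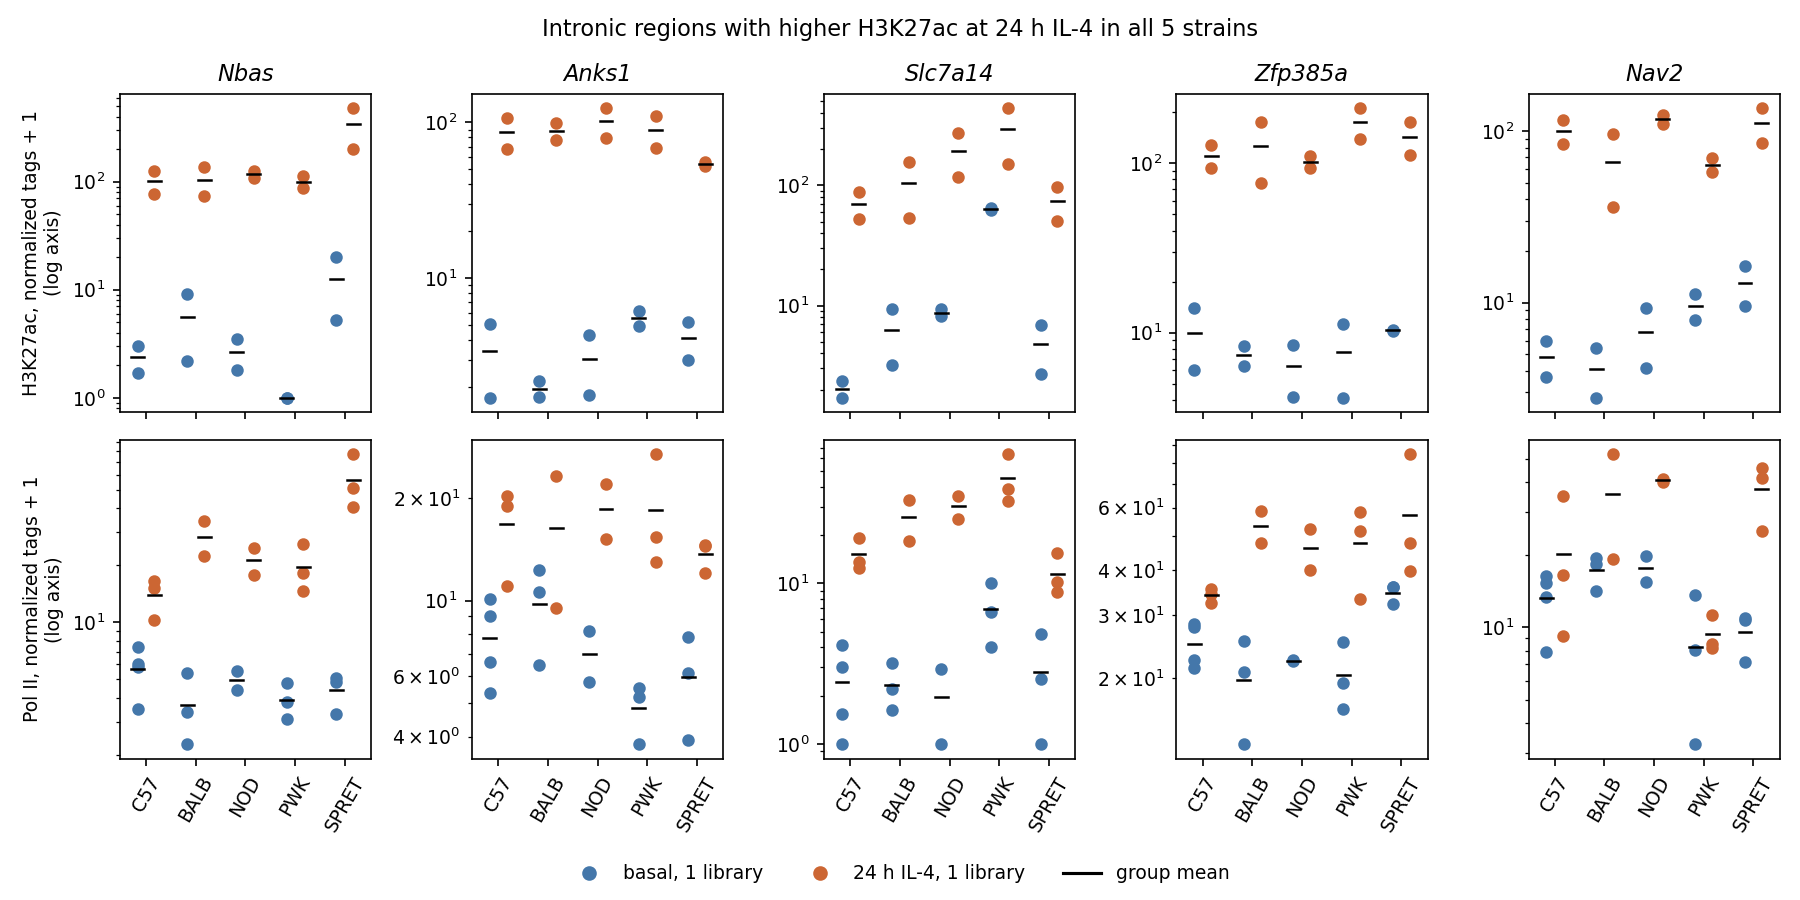
Normalised tags plus 1 on a log axis for H3K27ac (top) and Pol II (bottom) at the 5 intronic regions with the largest median H3K27ac fold among those higher in all 5 strains, with 1 point per library, basal in blue and 24 h IL-4 in orange, and the group mean as a black line. In H3K27ac the basal and 24 h libraries are apart in each strain and region, while in Pol II they overlap at Nav2 in C57, BALB and PWK and at Anks1 in BALB.

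Only 3 of the matched regions were higher in 1 strain and lower in another. At Prkag2, a subunit gene of AMP-activated protein kinase, H3K27ac was 38.24 and 27.78 against 151.17 and 70.92 in NOD (3.29-fold higher) and 36.05 and 64.21 against 12.12 and 13.36 in PWK (ratio 0.269). At Chn2 it was 13.68 and 31.61 against 59.07 and 73.23 in SPRET (2.84-fold higher) and 55.11 and 202.56 against 34.64 and 50.5 in BALB (ratio 0.336). At Rnd3 it was 11.11 and 13.17 against 38.79 and 35.54 in SPRET (2.90-fold higher) and 96.42 and 105.57 against 47.74 and 29.83 in NOD (ratio 0.390). In each of the 6 groups the basal and 24 h libraries did not overlap, and the difference between the strains was not tested.

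Peaks of the transcription factors, called by the authors in each strain and condition, were laid over the intronic regions. Regions with higher H3K27ac more often held a STAT6 peak at 24 h (74.5% in C57, 55.8% in BALB, 60.8% in NOD, 76.7% in PWK and 79.1% in SPRET) than regions that passed the minimum but not the fold (66.2%, 40.7%, 43.0%, 67.6% and 67.7%). The lower regions held one at 66.3%, 36.7%, 36.9%, 62% and 57.4%. By peak centres within 150 bp of the region's centre the higher and lower shares in C57 were 66.4% and 60.4%. In the basal condition a STAT6 peak lay at 18.4%, 7.41%, 11.8%, 10.2% and 27% of the higher regions, 73.7%, 44.3%, 58.1%, 44.8% and 61.5% of the lower ones and 56.4%, 29.9%, 43.6%, 34.9% and 58.7% of those that were neither. EGR2 at 24 h lay at 63.3%, 61.6%, 39.6%, 27.9% and 59.0% of the higher regions and 30.2%, 26.8%, 5.54%, 7.70% and 24.2% of the lower ones. An EGR2 peak present at 24 h and not in basal lay at 46.1%, 15.7%, 4.81%, 23.1% and 44.6% of the higher regions. It lay at 24.6%, 8.04%, 0.516%, 6.66% and 18.4% of the lower ones and 31.7%, 9.68%, 1.69%, 13.3% and 26.7% of those that were neither. In NOD 9.42% of the higher regions held an EGR2 peak in basal and none at 24 h, and the list went from 25341 to 16604 peaks. The peak lists differ in length between strains (14919 to 39458 for EGR2 at 24 h), so shares are compared within a strain only.

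PU.1, the general macrophage factor, was already at most lower regions before IL-4. A basal PU.1 peak lay at 89.1%, 93.9%, 91.1%, 91.5% and 91.8% of the lower regions in C57, BALB, NOD, PWK and SPRET and at 44.2%, 58.6%, 49.1%, 54.3% and 63.2% of the higher ones. By the fold rule lower regions had to start at 16 or more H3K27ac tags and higher ones did not. The part of this in the basal shares of PU.1 and STAT6 was not tested. A PU.1 peak present at 24 h and not in basal lay at 29.9%, 25%, 32.8%, 20.1% and 13.3% of the higher regions, against 2.45%, 1.43%, 3.09%, 0.914% and 1.23% of the lower ones. EGR2 and STAT6 peaks at 24 h came together at 53.1%, 34.0%, 23.9%, 23.4% and 49.5% of the higher and 25.8%, 16%, 3.68%, 6.66% and 14.8% of the lower regions. They did so at 34.9%, 21.1%, 10.8%, 15.1% and 33.4% of those that were neither and 25.2%, 14.7%, 7.37%, 12.2% and 25.2% of all regions. The lower regions of C57 and BALB were thus near the share of all regions. The Tex9 and Nbas regions of C57 whose sequences are given above held peaks of EGR2, STAT6, PPARg, PU.1 and C/EBPb at 24 h and of none of them in basal.

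**Figure D5:**
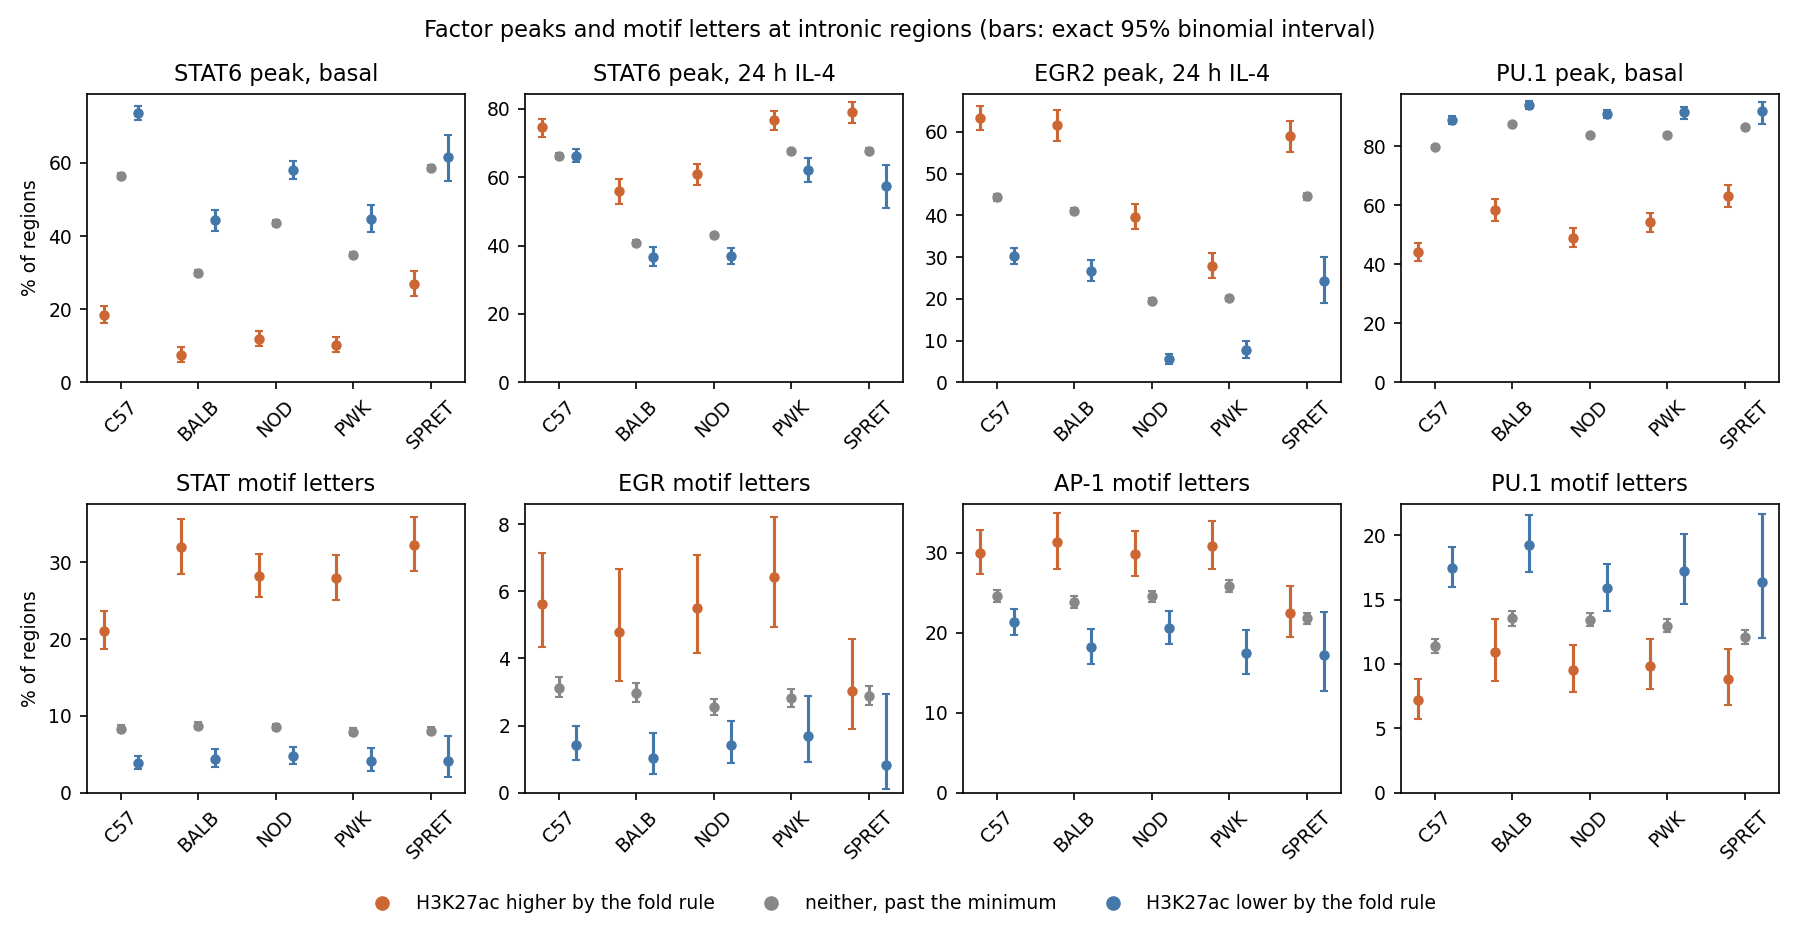
The top row gives the percentage of intronic regions that overlap a peak of STAT6 (basal and 24 h), EGR2 (24 h) and PU.1 (basal), and the bottom row the percentage whose central 300 bp hold the letters of a motif, for regions higher (orange), lower (blue) or neither (grey) in H3K27ac in each strain. Bars are exact 95% binomial intervals over regions. The STAT letters lie at 21.1% to 32.3% of the higher regions and 3.86% to 4.77% of the lower ones.

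The reference letters of the regions were searched for motifs. The STAT letters TTCNNNNGAA lay in the central 300 bp of 21.1% of the higher regions in C57 (exact 95% interval 18.7% to 23.7%), 32% in BALB, 28.3% in NOD, 28.0% in PWK and 32.3% in SPRET. They lay in 3.86%, 4.38%, 4.77%, 4.18% and 4.10% of the lower regions, 8.33%, 8.71%, 8.53%, 7.94% and 8.08% of those that were neither, and 7.19% to 7.98% of all windows of the tables. The EGR letters CGTGGGNG lay in 5.62%, 4.80%, 5.50%, 6.44% and 3.03% of the higher and 0.82% to 1.70% of the lower regions (3.63% to 4.27% of all windows). AP-1 letters, TGANTCA, lay in 22.5% to 31.4% of the higher and 17.2% to 21.3% of the lower regions (17.6% to 20.8% of all windows). The PU.1 letters GAGGAAGT had the reverse order, with 7.16% to 10.9% of the higher and 15.9% to 19.3% of the lower regions (9.53% to 12.1% of all windows). The C/EBP letters TTGCNNAA lay in 15.7% to 19.5% of the higher and 16.6% to 21% of the lower regions (15.1% to 15.8% of all windows), and the PPAR direct repeat of AGGNCA in 0.433% to 0.751% of the higher and 0.322% to 0.637% of the lower regions (0.478% to 0.573% of all windows). Matches of different motifs may overlap, and a match describes the mm10 letters and is no binding site.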

How the data were processed

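The authors aligned chromatin immunoprecipitation reads with bowtie2 (2.2.9), moved the tags of each strain to mm10 coordinates with MMARGE (1.0) and counted them with HOMER over 1000 bp around ATAC-seq peaks. The deposited signal values are tags per region scaled to 10000000 tags per library. The factor peak lists, whose score column was not used, hold peaks that the authors found reproducible between replicates with IDR (2.0.3), 1 list per group. Library totals were 4691644 to 21973750 tags (median 13517757), 0.469 to 2.20 reads per normalised tag, and whole reads were recovered for 100% of 5377124 values within 0.1 read.

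The intronic regions, gene lists and comparisons were chosen with earlier results of these data known. Groups came from the sample labels, and no 2 of the 57 replicate pairs were identical. Group means were compared by a fold of 2.5 after adding 1 tag, with at least 16 normalised tags (8 for Pol II) in either group. limma 3.58.1 (R 4.3.3) was fitted to log2(tags + 1) of all regions of a strain's table, separately for each mark, with Benjamini-Hochberg adjusted p under 0.05, and it was tested on simulated data. edgeR 4.0.16 and DESeq2 1.42.0 on recovered reads were alternatives, beside another scaling, pseudocount, minimum and fold, a replicate block and leaving out each library. Deviations of same-numbered Pol II libraries correlated in all 3 pairs in C57 (0.19, 0.30 and 0.40), PWK (0.63, 0.44 and 0.51) and SPRET (0.44, 0.41 and 0.42), so these numbers were taken as pairing, from the data, as the labels do not say what a number marks. Intronic shares against other classes were compared by exact permutation within strains (scipy 1.17.1).

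Regions named in the text were the 3 largest gains and losses per strain among those changed in both marks without overlap, the strongest region of each list gene if it passed the fold rule in C57 (up to 12 per list), 5 host genes per direction, and the 5 largest gains shared by all strains with those of opposite direction. Of 12588 transcript accessions 12566 matched a symbol, and gene positions came from GENCODE vM21 on GRCm38.p6. Time courses, knockout tables and other time points were not used here. Some items that this rule names are not reported here.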

Additional observations from a re-analysis of the deposited data

Results flagged for a closer look

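Pol II at the Tmem26 region was 13.73 normalised tags in C57 basal replicate 1 and 0 to 1.01 in the other 3 basal libraries, a gap that stood apart from the spread of the group by Dixon's criterion. Pol II at Matk was 36.45 in 1 basal library of C57 against 45.55 to 46.63 in the others, and at Ptpn2 it was 21.67 against 13.73 to 14.47. Of 36 sets of 4 values tested 3 stood out in this way, and chance gives about 1 in 20 for independent sets. Only basal Pol II of C57 has 4 libraries, so these sets come from the same libraries and are not independent.

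At 3 matched regions every library moved one way in 1 strain and the opposite way in another, and the difference between strains was not tested. The 24 h to basal ratios of H3K27ac were 3.29 in NOD and 0.269 in PWK at Prkag2, 2.84 in SPRET and 0.336 in BALB at Chn2, and 2.90 in SPRET and 0.390 in NOD at Rnd3.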

How the results depend on the processing

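With no minimum of tags the regions by the fold rule numbered H3K27ac higher 2570 in C57, 1071 in BALB, 1918 in NOD, 1683 in PWK and 1120 in SPRET, and H3K27ac lower 394 in SPRET. A minimum of 32 tags gave H3K27ac higher 688 in C57, 458 in BALB and 661 in NOD. A fold of 2 gave H3K27ac higher 1063 in BALB, 1422 in PWK and 1205 in SPRET, H3K27ac lower 4638 in C57, 2881 in BALB, 3351 in NOD, 1988 in PWK and 758 in SPRET, both marks higher 450 in C57, 541 in BALB, 650 in NOD, 631 in PWK and 396 in SPRET, and both marks lower 750 in C57, 283 in BALB, 614 in NOD, 412 in PWK and 207 in SPRET. A pseudocount of 5 gave H3K27ac lower 461 in PWK and 136 in SPRET, both marks higher 127 in C57, 163 in BALB, 210 in NOD, 186 in PWK and 101 in SPRET, both marks lower 112 in C57, 34 in BALB, 78 in NOD, 32 in PWK and 19 in SPRET, H3K27ac calls 27 in NOD, Pol II calls 2 in NOD, and H3K4me3 calls 44 in NOD and 18 in PWK. Median-ratio scaling gave H3K27ac higher 1711 in C57 and 1097 in BALB, H3K27ac lower 964 in C57, 475 in BALB, 907 in NOD and 401 in PWK, both marks lower 181 in C57, H3K27ac calls 0 in NOD, 42 in PWK and 186 in SPRET, Pol II calls 179 in C57, 14 in BALB and 4 in NOD, H3K4me2 calls 133 in C57, 92 in BALB, 12 in NOD and 9 in PWK, and H3K4me3 calls 53 in NOD and 0 in PWK. Testing only regions past the minimum, and so fewer regions, gave limma counts of H3K27ac calls 299 in BALB and 37 in NOD, H3K4me2 calls 20 in C57, 0 in BALB, 20 in NOD, 42 in PWK and 1 in SPRET, and H3K4me3 calls 67 in BALB, 57 in NOD and 22 in PWK. On recovered reads edgeR gave H3K27ac calls 53 in C57, 0 in NOD and 56 in PWK, Pol II calls 169 in C57, 19 in NOD and 497 in SPRET, H3K4me2 calls 166 in C57, 145 in BALB, 23 in NOD, 17 in PWK and 7 in SPRET, and H3K4me3 calls 66 in C57, 21 in BALB, 83 in NOD, 39 in PWK and 120 in SPRET. DESeq2 gave H3K27ac calls 901 in C57, 505 in NOD and 285 in PWK, Pol II calls 488 in C57, 180 in NOD, 695 in PWK and 610 in SPRET, H3K4me2 calls 21 in BALB, 3 in NOD, 23 in PWK and 1 in SPRET, and H3K4me3 calls 149 in C57, 59 in BALB, 56 in NOD, 24 in PWK and 33 in SPRET.

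Blocking on the replicate number gave limma counts of H3K27ac calls 10343 in C57, 1861 in BALB, 6238 in NOD, 2619 in PWK and 1851 in SPRET, Pol II calls 239 in C57, 0 in BALB, 2055 in NOD, 2677 in PWK and 2006 in SPRET, H3K4me2 calls 175 in C57, 8 in BALB, 160 in NOD, 535 in PWK and 6038 in SPRET, and H3K4me3 calls 3418 in C57, 640 in BALB, 116 in NOD and 2383 in PWK. With that block the H3K4me2 ratios to intergenic regions and promoters were -0.104 and 0.120 (both with an exact permutation adjusted p of 0.0469). Pol II of BALB and NOD and each histone mark had at most 2 same-numbered pairs, with correlations of 0.21 to 0.73 between the deviations of same-numbered libraries. These correlations were positive throughout, as for Pol II in the strains taken as paired. For H3K27ac they were 0.51 to 0.73, above the 0.19 to 0.40 of Pol II in C57. With at most 2 pairs the pairing was left unsettled, so the blocked counts are given as an alternative. In C57, where basal Pol II has 4 libraries and 24 h has 3, the unblocked count over the numbered pairs alone was 10. The block changed the call of 6 named Pol II regions in C57, PWK and SPRET, which are given with their values above, and of no other in these strains.

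Leaving out 1 library at a time gave H3K27ac higher 1024 to 1463 (C57), 482 to 1112 (BALB), 1085 to 1566 (NOD), 1024 to 1561 (PWK) and 667 to 1160 (SPRET), H3K27ac lower 1954 to 3512 (C57), 936 to 3939 (BALB), 1656 to 2756 (NOD), 901 to 1732 (PWK) and 250 to 530 (SPRET), both marks higher 220 to 357 (C57), 194 to 425 (BALB), 331 to 383 (NOD), 302 to 430 (PWK) and 128 to 227 (SPRET), both marks lower 204 to 338 (C57), 73 to 201 (BALB), 161 to 403 (NOD), 72 to 146 (PWK) and 25 to 67 (SPRET); H3K27ac calls 0 to 76 (C57), 207 to 1508 (BALB), 0 to 774 (NOD), 0 to 805 (PWK) and 0 to 94 (SPRET), Pol II calls 0 to 276 (C57), 0 to 138 (BALB), 0 to 0 (NOD), 38 to 409 (PWK) and 16 to 165 (SPRET), H3K4me2 calls 0 to 13094 (C57), 1 to 11039 (BALB), 0 to 6674 (NOD), 0 to 161 (PWK) and 34 to 2165 (SPRET), H3K4me3 calls 0 to 0 (C57), 0 to 0 (BALB), 0 to 0 (NOD), 0 to 86 (PWK) and 0 to 0 (SPRET). Where a group was left with 1 library, that library was assumed to vary like the others. Leaving out 1 strain at a time gave log2 shifts of the intronic ratios of H3K27ac to intergenic -0.039 to -0.0077, H3K27ac to promoter -0.0020 to 0.046, Pol II to intergenic 0.034 to 0.085, Pol II to promoter 0.021 to 0.074, H3K4me2 to intergenic -0.129 to -0.067, H3K4me2 to promoter 0.102 to 0.143, H3K4me3 to intergenic -0.125 to -0.074, H3K4me3 to promoter 0.046 to 0.072. The H3K27ac ratio to promoters was -0.0016 without C57 and -0.0020 without SPRET. Taken as medians of log2 tags over regions, the Pol II ratios were -0.0394 and -0.0378 to intergenic regions and promoters, and the ratios to promoters were 0.198 for H3K4me2 and 0.530 for H3K4me3 (exact permutation adjusted p 0.0267 for both). The STAT6 share at 24 h with a peak centre within 150 bp was 66.4% of the higher and 60.4% of the lower regions in C57, and 56% (NOD), 71.2% (PWK) and 71.7% (SPRET) of the higher ones. At Prkag2 in C57 the log2 difference of H3K27ac was 0.12 with median-ratio scaling, 0.076 in edgeR, 0.057 in DESeq2, 0.30 without basal replicate 2 and 0.029 without 24 h replicate 1, against -0.20 in limma with the deposited scaling, over a range of -0.69 to 0.30 with 1 library left out. At Chn2 in C57 it was -1.36 with all libraries, and 0.36 to -3.07 when either 24 h library was left out. For the moves above the cause was not tested. Depth limits regions with few tags, at 0.469 to 2.2 reads per normalised tag.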

Other observations

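PPARg and C/EBPb, a nuclear receptor of lipid metabolism and a factor of macrophage enhancers, were laid over the same intronic regions. A PPARg peak at 24 h lay at 55.1%, 45.5%, 63.9%, 43.3% and 35.6% of the regions with higher H3K27ac in C57, BALB, NOD, PWK and SPRET and at 51.4%, 29.2%, 46.4%, 29.1% and 25.8% of the lower ones. In the basal condition the shares were 4.17%, 3.78%, 9.91%, 15.1% and 20.9% of the higher and 15.4%, 11.2%, 20.8%, 27.4% and 28.7% of the lower regions. C/EBPb at 24 h lay at 55.8%, 47.7%, 55.2%, 52.7% and 43.1% of the higher and 52.7%, 48.1%, 56.3%, 51.4% and 33.2% of the lower regions, and in the basal condition at 15.6%, 9.30%, 14.4%, 25.6% and 33.8% of the higher against 37.5%, 33.3%, 37.4%, 53.8% and 39.8% of the lower ones. Only lower regions had to pass the H3K27ac minimum in basal, and the part of this in the basal shares was not tested. Of the higher regions 6.16% (C57), 3.05% (BALB), 3.73% (NOD), 4.72% (PWK) and 5.05% (SPRET) held no peak of any of the 5 factors at 24 h. In the same strain order the share without such a peak was 6.14%, 5.81%, 5.35%, 8.49% and 7.79% of the lower regions. It was 6.22%, 4.89%, 4.33%, 5.80% and 6.32% of those that were neither, so a low share was not particular to the higher regions.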
